A study of Homo sapiens with 21 samples.

Results

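The comparison described here sets the A549 control cells against the BEAS-2B cells that expressed wild-type (WT) APE1, that is, 2 lung-derived human cell lines before any of the siRNA, TSA or mutant arms of the study is considered. It holds 6 of the 21 arrays of the series, chosen only by their titles: 3 A549 control arrays and 3 BEAS-2B WT APE1 arrays. A549 is an established line from a lung adenocarcinoma, a cancer of the glandular epithelium of the distal lung. BEAS-2B is an established bronchial epithelial line, labelled normal, that was immortalised with a hybrid of adenovirus and SV40.

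The A549 control cells received control siRNA and no TSA, grew in high-glucose DMEM and carry no introduced gene. The BEAS-2B WT APE1 cells were transfected with a pcDNA3 plasmid encoding full-length WT APE1 and grew in a mixture of DMEM and F12. APE1 (gene APEX1) is a DNA repair endonuclease that also acts on transcription factors. The labels give harvest at 48 h for both, while the methods of the study give a longer interval for cells with siRNA. The remaining A549 groups received APE1 siRNA, the histone deacetylase inhibitor TSA (100 ng/ml, 4 h) or both, and the remaining BEAS-2B groups expressed the RR or the ND42 form of APE1. Each line is a single line, so every p-value below measures the spread between 3 cultures of A549 and 3 cultures of BEAS-2B and not the spread between tumours and normal epithelia. The line, the transfected nucleic acid, the medium and the separate processing of the arrays of each line coincide, and their contributions cannot be told apart.

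The values are log2 signals of an Affymetrix whole-transcriptome array. They were deposited with a median of 6.40 to 6.41 on the A549 control arrays and 5.69 to 5.70 on the BEAS-2B WT APE1 arrays, since the lines had been normalized apart, so all 6 arrays were quantile-normalized together. After that step arrays correlated at r = 0.998 within A549, at 0.996 to 0.997 within BEAS-2B and at 0.923 to 0.925 between the lines. The difference between the 3' and 5' control probe sets of ACTB, a sign of RNA integrity, was 0.15 to 0.40 log2 in A549 and 0.21 to 0.33 log2 in BEAS-2B. A further array outside the comparison, A549 APE1 siRNA replicate 2, stood apart: its best correlation with its own group was 0.892, against at least 0.995 for each of the other 20 arrays. On that array the 3' signal exceeded the 5' signal by 5.88 log2 for ACTB and by 2.52 log2 for GAPDH, against at most 1.15 and 0.70 log2 on any of the others, and the ranges over all 21 arrays given below include it.

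Of 19775 genes tested with limma, 1434 were higher and 1273 were lower in A549 at an adjusted p under 0.05 and a change of at least 2-fold, that is 7.25% and 6.44% of all genes. These percentages are the background for the counts of list members given below with the joint normalization and these thresholds. They do not apply to list counts under another setting, whose background is the number of all genes called under that setting. With the values as deposited that background was 4589 higher and 543 lower of 19775 genes. At least 4-fold, 343 genes were higher and 336 lower, and at least 16-fold, 61 were higher and 70 lower. The adjusted p alone was under 0.05 for 14240 genes (72% of those tested), so the fold minimum, rather than the p, decided most calls. The median difference over all genes was -0.006 log2. The split between the directions depends on the scaling: 53% of the calls were higher in A549 with the joint normalization, 36.7% with each array only centred on its median (1220 higher and 2100 lower) and 89.4% with the values as deposited (4589 higher and 543 lower), where the median gene itself stood 0.55 log2 higher in A549.

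**Figure D1:**
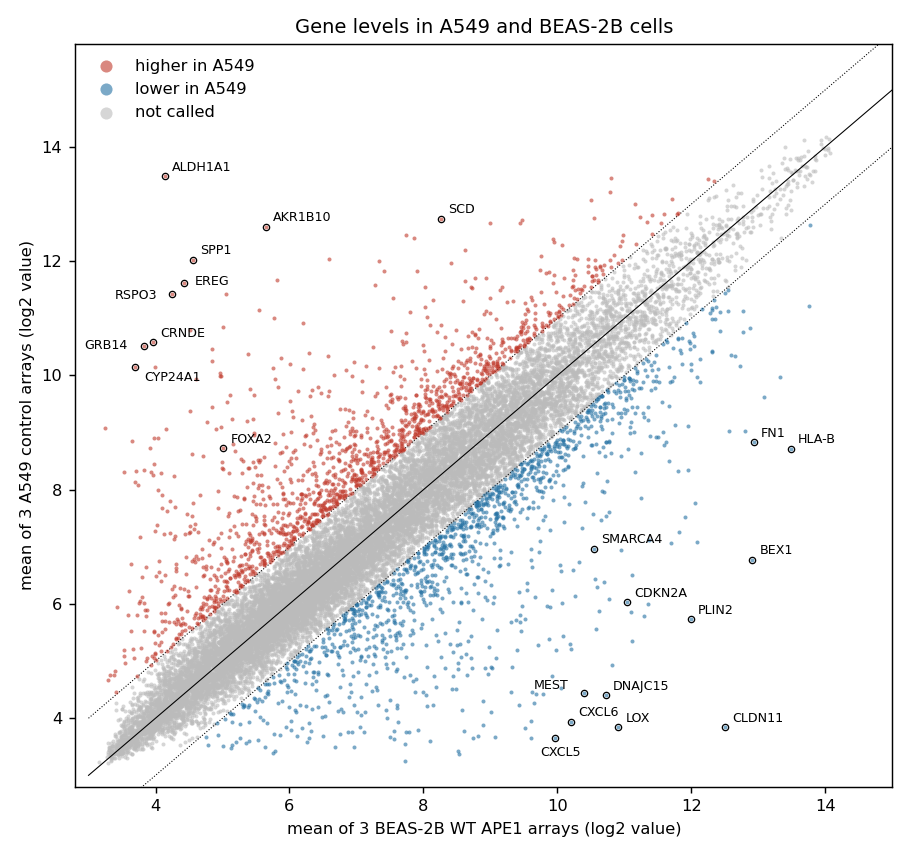
Each point is a gene, with its mean log2 value over 3 A549 control arrays on the vertical axis and over 3 BEAS-2B WT APE1 arrays on the horizontal axis. Red points are higher and blue points lower in A549 (adjusted p under 0.05 and at least 2-fold), the solid line is equality and the dotted lines are 2-fold. ALDH1A1 and CLDN11 lie farthest from the line.

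The calls were set beside the whole series, which adds arrays not used for them. With all 21 arrays normalized together, the 12 A549 arrays and the 9 BEAS-2B arrays did not overlap for 2121 of the 2707 genes called (78.4%), against 31% of all genes. Without A549 APE1 siRNA replicate 2 the count was 2392 (88.4%), against 39.4% of all genes. The 6 arrays compared are among these arrays, which favours called genes over all genes. The counts describe whether the lines stayed apart over the siRNA, TSA and APE1 form groups. The ranges also hold the spread between cultures and between arrays.

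The 15 genes with the largest positive difference included enzymes of aldehyde, steroid, prostaglandin and vitamin D metabolism and the secreted proteins SPP1, EREG and RSPO3, beside genes of other kinds. ALDH1A1, a cytosolic aldehyde dehydrogenase that oxidises retinal to retinoic acid, had 13.55, 13.39 and 13.50 log2 in A549, against 4.42, 4.08 and 3.93 log2 in BEAS-2B. Its difference of 9.34 log2 (SE 0.11, limma adjusted p = 1.23e-12) is the largest in either direction among the genes named by the rule. Over the whole series it stayed between 13.13 and 13.72 on the 12 A549 arrays and between 3.92 and 4.74 on the 9 BEAS-2B arrays. SPP1, the secreted matrix protein osteopontin, averaged 12.02 ± 0.02 log2 in A549 and 4.56 ± 0.12 log2 in BEAS-2B (SD, n = 3 each). EREG, the EGF receptor ligand epiregulin, had 11.65, 11.73 and 11.48 log2 in A549, against 4.63, 4.26 and 4.37 log2 in BEAS-2B. RSPO3, a secreted enhancer of WNT signalling, had 11.47, 11.43 and 11.38 log2 in A549, against 4.41, 4.25 and 4.09 log2 in BEAS-2B. No A549 array came near a BEAS-2B array for any of these genes.

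The other genes of this group were higher in A549 by between 5.63 and 6.96 log2. They were AKR1B10 and AKR1C3, aldo-keto reductases, ALDH3A1, a second aldehyde dehydrogenase, and HPGD, which inactivates prostaglandins. CYP24A1, the mitochondrial hydroxylase that inactivates vitamin D, averaged 10.15 ± 0.02 log2 in A549 and 3.69 ± 0.04 log2 in BEAS-2B (SD, n = 3 each). GRB14, an adaptor of the insulin receptor, IL13RA2, a decoy receptor for interleukin 13, NRCAM, a neuronal cell adhesion molecule, ZIC2, a zinc finger transcription factor of the developing brain, CRNDE, a long noncoding RNA, and TCIM completed the set. Every probe set of these 15 genes was called higher in A549, and over the 21 arrays the lines did not overlap for any of the 15. GRB14 shows how A549 APE1 siRNA replicate 2 widened the A549 range: on that array it had 5.52 log2, its lowest of the 12 A549 arrays, against 3.87 log2 on its highest of the 9 BEAS-2B arrays.

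The 15 genes with the most negative difference were of mixed kinds, from junction, matrix and chemokine proteins to enzymes and interferon-induced proteins. CLDN11, a tight junction claudin best known from myelin and the testis, had 3.82, 3.85 and 3.87 log2 in A549, against 12.65, 12.39 and 12.47 log2 in BEAS-2B, a difference of -8.66 log2 (SE 0.07, limma adjusted p = 6.51e-13). LOX, the lysyl oxidase that cross-links collagen and elastin, had 3.86, 3.89 and 3.78 log2 in A549, against 10.99, 10.90 and 10.83 log2 in BEAS-2B. GLUL, glutamine synthetase, had 3.74, 3.63 and 3.62 log2 in A549, against 9.57, 9.60 and 9.65 log2 in BEAS-2B. The A549 values of all 3 genes lie at the low end of the array, and the lines are far apart on every array. GLUL stayed between 3.51 and 3.73 log2 on the 12 A549 arrays and between 9.54 and 9.71 log2 on the 9 BEAS-2B arrays.

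The rest of this group was lower in A549 by between 5.51 and 6.32 log2. It held the neutrophil chemokines CXCL5 and CXCL6, the lipid droplet coat protein PLIN2, the imprinted gene MEST, the branched-chain aminotransferase BCAT1, the NKG2D ligand MICB, the collagen chain COL8A1, the interferon-induced proteins GBP1 and IFITM1, the mitochondrial co-chaperone DNAJC15, the Notch ligand DNER, and BEX1. PLIN2 averaged 5.73 ± 0.18 log2 in A549 and 11.99 ± 0.13 log2 in BEAS-2B (SD, n = 3 each). For MICB and DNER the lines came closer on arrays outside the comparison. MICB reached 9.29 log2 in A549, against a lowest BEAS-2B value of 10.79 log2. DNER reached 8.97 log2 in A549, against a lowest BEAS-2B value of 10.40 log2. Several of the 15 genes have a probe set that shows little of the difference. The probe sets of CLDN11 ranged between -8.66 and 0.20 log2, with 2 of 3 called lower. Those of PLIN2 ranged between -6.26 and -0.46 log2, those of BCAT1 between -5.88 and -0.22 log2 and those of GLUL between -5.94 and 0.26 log2. The least negative or highest probe set was at 0.11 log2 for GBP1, -0.13 for COL8A1, -0.49 for CXCL5 and -0.79 for DNAJC15. The files carry no detection call, so whether a value near the bottom of the scale is signal or background was not tested.

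Airway and alveolar epithelial cells are told apart by a few lineage genes: surfactant proteins and NKX2-1 for alveolar type 2 cells, keratins 5 and 14 for basal cells, secretoglobins and mucins for secretory cells, and cadherin, EpCAM and keratins for epithelium in general. Leukocyte and endothelial markers, from cells that neither culture should hold, were read at 20 genes, of which 0 were called (3 higher and 0 lower with the values as deposited). Of 14 alveolar type 2 markers 2 were higher and 2 lower in A549, and with the values as deposited 6 were higher and 1 lower. LPCAT1, which makes surfactant phospholipid, had 9.92, 10.11 and 10.11 log2 in A549, against 8.42, 8.45 and 8.32 log2 in BEAS-2B, and LAMP3, a lamellar body protein, was lower by -3.04 log2. SFTPB averaged 7.34 log2 in A549 and 6.65 log2 in BEAS-2B, SFTPC averaged 7.63 log2 in A549 and 7.80 log2 in BEAS-2B, and NKX2-1 averaged 5.84 log2 in A549 and 5.56 log2 in BEAS-2B. None of these 3 defining markers reached a 2-fold difference. Whether they were expressed above background in either line was not tested, since the files carry no detection call and levels of different probe sets cannot be set against each other.

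Of 12 airway basal markers 0 were higher and 1 was lower in A549, the laminin chain LAMB3 (-1.42 log2), while KRT5 averaged 6.69 log2 in A549 and 6.88 log2 in BEAS-2B. Of 21 secretory and goblet markers 1 was higher and 2 were lower, of 10 ciliated markers 2 were higher and 0 lower, and of 10 neuroendocrine markers 1 was higher and 1 lower. With the values as deposited the higher and lower counts were 1 and 0 for basal, 5 and 1 for secretory, 3 and 0 for ciliated and 3 and 0 for neuroendocrine markers. AGR2, a disulfide isomerase of mucus-producing cells, averaged 7.36 ± 0.19 log2 in A549 and 5.97 ± 0.07 log2 in BEAS-2B (SD, n = 3 each). CHGB, a granin of secretory granules, was higher by 2.04 log2. UCHL1, a neuronal ubiquitin hydrolase, averaged 12.82 log2 in A549 and 11.94 log2 in BEAS-2B, under 2-fold apart. Of 10 alveolar type 1 markers 1 was higher, EMP2 (1.65 log2), and 2 were lower, HOPX (-2.34 log2) and RTKN2 (-1.21 log2), and with the values as deposited 2 were higher and 1 lower.

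General epithelial genes were mostly alike or lower in A549. Of 37 epithelial junction and identity genes 2 were higher, 5 lower and 30 not called, with a median difference of -0.20 log2 beside -0.006 log2 over all genes, and with the values as deposited the counts were 5 higher and 1 lower. CDH1, E-cadherin, had 5.03, 5.08 and 5.11 log2 in A549, against 5.05, 5.15 and 5.23 log2 in BEAS-2B, and the lines overlap. EPCAM averaged 4.58 log2 in A549 and 5.96 log2 in BEAS-2B and was called lower, and KRT19 averaged 4.67 log2 in A549 and 5.65 log2 in BEAS-2B. The means of EPCAM and KRT19 all lay under 6 log2, where signal over background limits the reading. The second probe set of CDH1 was lower in A549 by -1.75 log2, so the level of this gene is uncertain. Among keratins of simple epithelium, KRT18 and KRT7 had high values in both lines, while KRT19 did not. KRT18 lay between 9.67 and 11.69 log2 on the 12 A549 arrays and between 11.82 and 11.95 log2 on the 9 BEAS-2B arrays. Its difference on the 6 arrays compared was -0.90 log2. KRT7 averaged 11.16 log2 in A549 and 10.64 log2 in BEAS-2B. KRT8, the partner of KRT18, was lower in A549 by -2.59 log2 (SE 0.08, limma adjusted p = 6.06e-10). The desmosome protein DSP (-1.48) and the tight junction proteins OCLN (-1.10) and MARVELD2 (-1.49) were lower too, each below 2-fold with the values as deposited, while the protease inhibitor SPINT2 was higher by 1.87 log2.

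**Figure D2:**
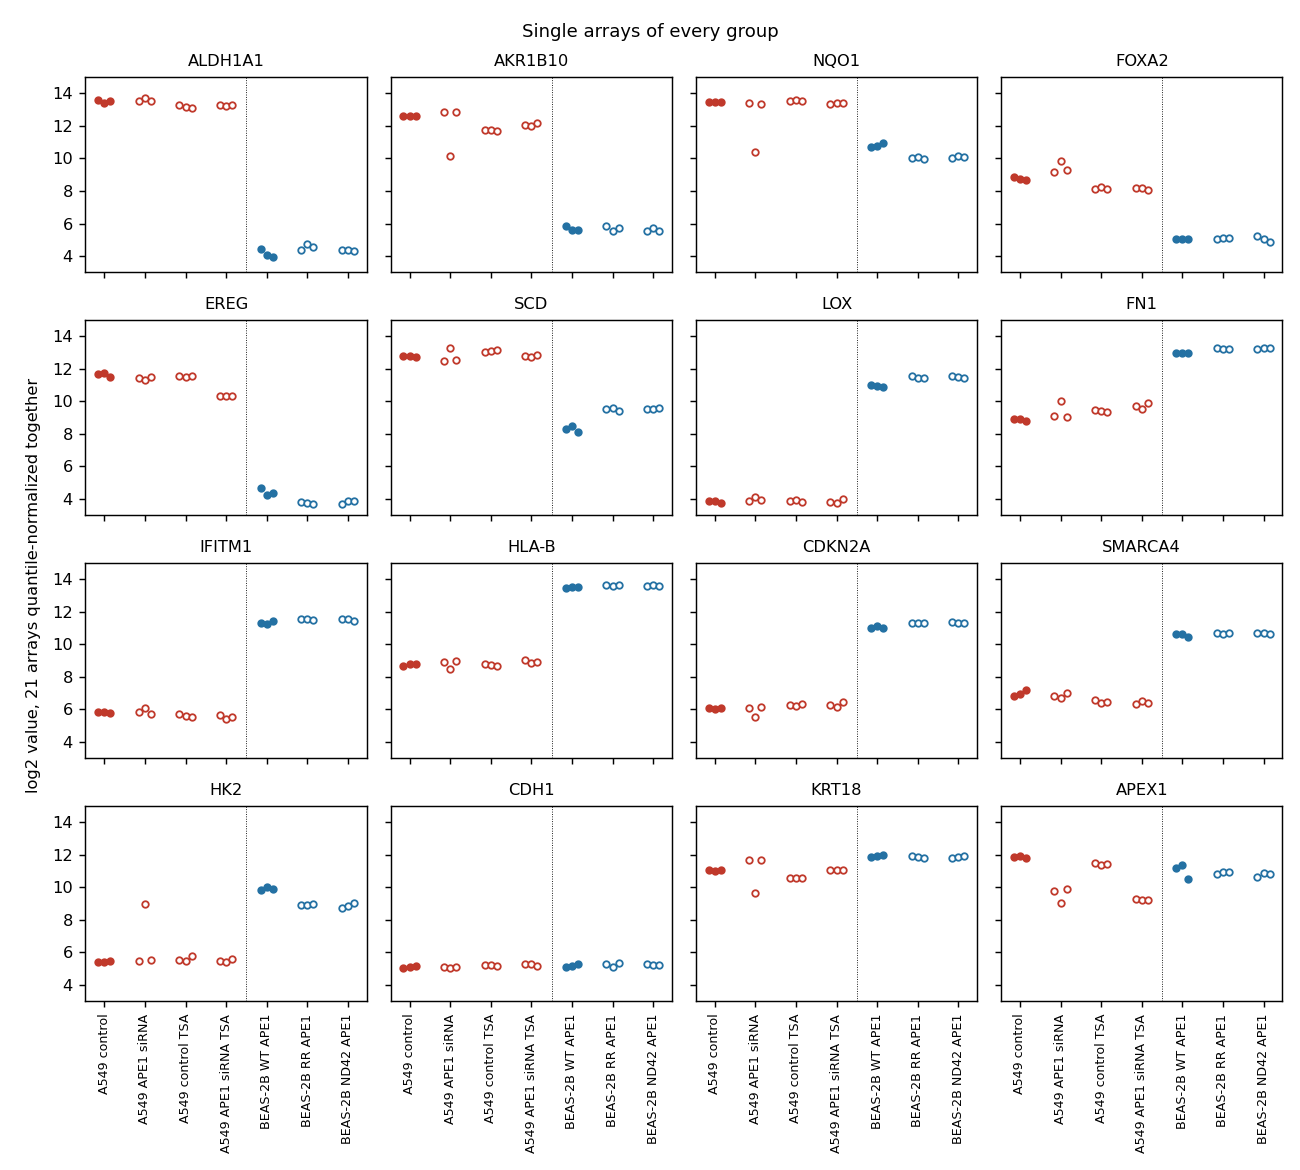
Log2 values of 16 genes on all 21 arrays, normalized together, with A549 groups in red to the left and BEAS-2B groups in blue to the right of the dotted line, and the arrays compared filled. CDH1 lies between 5.03 and 5.35 on every array, and the array of A549 APE1 siRNA replicate 2 stands apart for HK2, NQO1, AKR1B10 and KRT18.

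Transcription factors of the foregut endoderm, the tissue from which lung, liver and pancreas form, differed by single members. Of 23 read, 5 were higher and 2 lower in A549, and with the values as deposited 11 were higher and 1 lower. NR5A2, a nuclear receptor of liver and pancreas, averaged 8.91 ± 0.08 log2 in A549 and 4.04 ± 0.03 log2 in BEAS-2B (SD, n = 3 each). FOXA2, a pioneer factor of endoderm, averaged 8.73 ± 0.07 log2 in A549 and 5.01 ± 0.01 log2 in BEAS-2B (SD, n = 3 each). GATA4 was higher by 1.76 log2, ISL1 by 1.26 and CEBPA by 1.10. GATA6, a relative of GATA4 that is used in the airway, was lower by -2.14 log2, and SOX9 of the branching lung tip by -1.42 log2. SOX2, the factor of proximal airway, shows how the reading depends on the probe set: the probe set with the highest mean differed by -0.16 log2, while 3 of its 4 probe sets were called higher in A549, by up to 4.84 log2. Its call is therefore not settled by the rule used here.

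Secreted proteins typical of the liver showed no common direction as a list. Of 40 liver-type secreted proteins 1 was higher, the complement component C5 (2.10 log2), and 3 were lower in A549: complement C3 (-2.31), complement factor B, CFB (-3.73), and the antitrypsin gene SERPINA1 (-1.67). The median of the list was -0.01 log2, and with the values as deposited 8 were higher and 3 lower. The HNF1 motif GTTAATNAT, searched on both strands of the 300 bases around the first listed start site of each gene (250 before and 50 after), was in 5 of 31 list promoters with a sequence (16.1%), against 0.751% of 27305 RefSeq promoters of GRCh38.p14, and the 5 genes were ALB, FGA, AFP, PLG and C4BPA, of which 0 were called.

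HOX genes record position along the body axis. Of 28 read, 2 were higher and 5 lower in A549. HOXD8 averaged 7.68 ± 0.12 log2 in A549 and 4.93 ± 0.17 log2 in BEAS-2B (SD, n = 3 each), and HOXB8 was higher by 2.28 log2. HOXB2 averaged 5.69 ± 0.03 log2 in A549 and 9.31 ± 0.15 log2 in BEAS-2B (SD, n = 3 each), and HOXC6 was lower by -2.18 log2. With the values as deposited the counts were 6 higher and 2 lower.

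Matrix and mesenchymal genes, whose products build and remodel connective tissue, were the largest structural difference. Of 48 genes 21 (against 6.44% of all genes) were lower and 3 higher in A549, with a median of -0.68 log2, and 16 were lower with the values as deposited and 16 with all probe sets of a gene averaged. COL5A2, a fibrillar collagen chain, had 6.15, 5.89 and 5.98 log2 in A549, against 11.40, 11.34 and 11.32 log2 in BEAS-2B. TNC, the matrix glycoprotein tenascin C, had 7.30, 7.23 and 7.23 log2 in A549, against 11.83, 11.83 and 11.79 log2 in BEAS-2B. FN1, fibronectin, averaged 8.83 log2 in A549 and 12.93 log2 in BEAS-2B, a difference of -4.09 log2 (SE 0.06, limma adjusted p = 5.43e-12). For each of these genes the 12 A549 arrays lay below the 9 BEAS-2B arrays.

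The cell surface protein THY1 (-4.31 log2), the binding protein IGFBP7 (-4.38), the transcription factors TWIST1 (-1.40) and TWIST2 (-4.03), the collagen chains COL1A1 (-2.24) and COL5A1 (-3.65) and the receptor kinase AXL (-2.30) were lower as well. VIM, vimentin, the intermediate filament of mesenchymal cells, did not follow them. It had 13.66, 13.71 and 13.63 log2 in A549, against 13.63, 13.64 and 13.66 log2 in BEAS-2B, and the lines overlap. These values lie near the top of the scale, and whether that hides a difference was not tested. CDH2, N-cadherin, averaged 9.99 log2 in A549 and 10.77 log2 in BEAS-2B, less than 2-fold apart. S100A4, a calcium-binding protein of motile cells, had 10.14, 9.91 and 9.99 log2 in A549, against 6.75, 6.64 and 6.61 log2 in BEAS-2B, and ACTA2, smooth muscle actin, was higher by 2.43 log2, although its probe sets ranged between -0.05 and 2.43 log2.

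**Figure D3:**
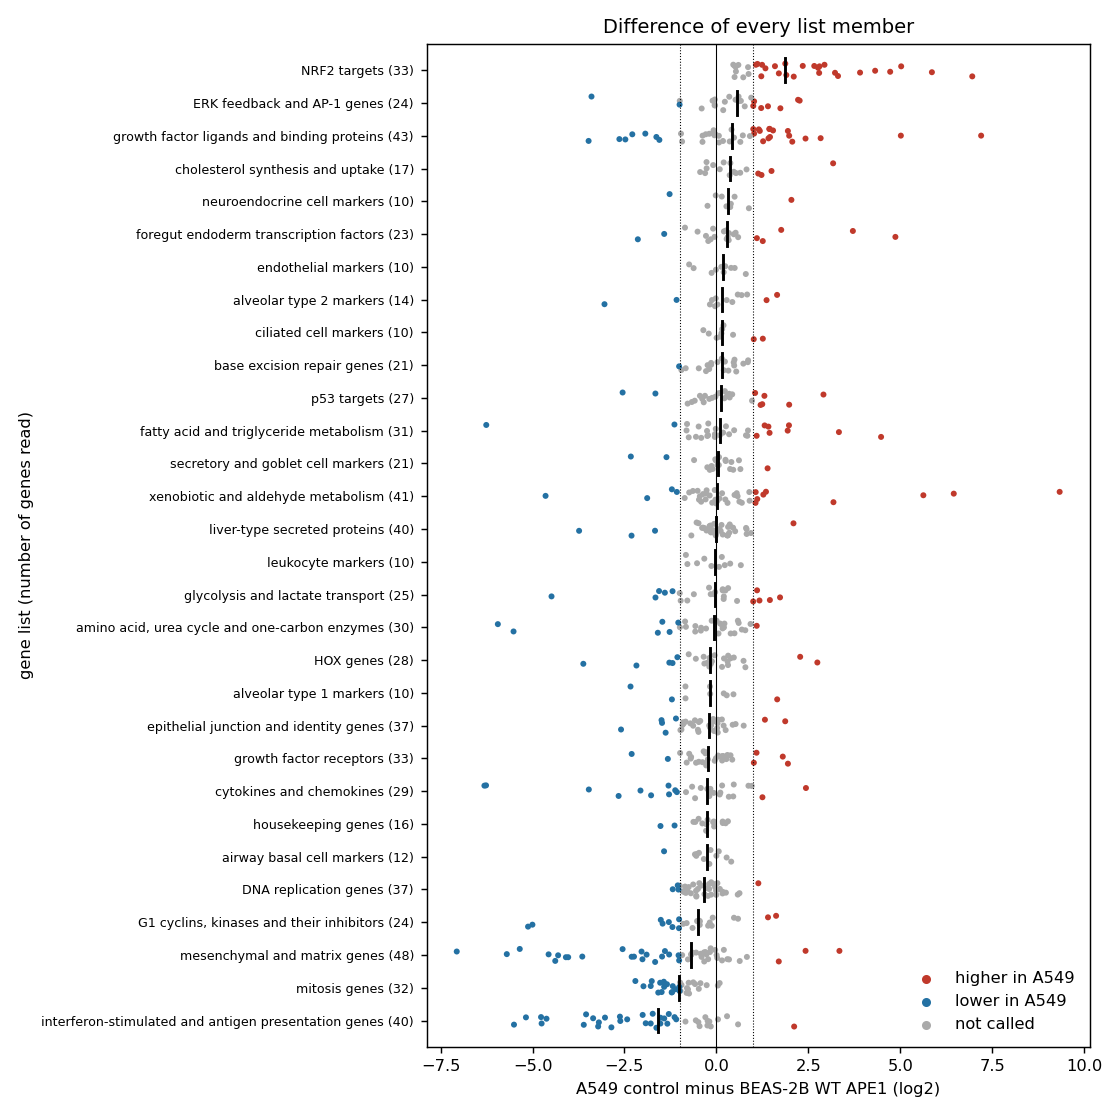
Difference in log2 (A549 control minus BEAS-2B WT APE1) of every gene read, by gene list, ordered by the list median (black bar), with the number of genes read in brackets. Dotted lines mark 2-fold. NRF2 targets lie to the right of zero throughout, and the interferon, mitosis and matrix lists extend to the left.

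NRF2 (gene NFE2L2) is the transcription factor of the antioxidant response. KEAP1 holds it for degradation until oxidants or electrophiles modify KEAP1, and free NRF2 then binds antioxidant response elements at genes for glutathione synthesis, quinone and carbonyl reduction, drug export and NADPH supply. Of 33 of its known targets 24 were higher in A549 (against 7.25% of all genes), 0 were lower and 9 were not called, with a median of 1.87 log2, and all 33 differences were positive. The count was 23 with arrays centred on their medians, 22 with all probe sets of a gene averaged and 24 whichever of the 6 arrays was left out, and 33 with the values as deposited.

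Among carbonyl and quinone reductases, AKR1B10 had 12.62, 12.58 and 12.62 log2 in A549, against 5.80, 5.57 and 5.56 log2 in BEAS-2B. NQO1, the quinone reductase, had 13.48, 13.45 and 13.45 log2 in A549, against 10.68, 10.77 and 10.94 log2 in BEAS-2B. AKR1C1 was higher by 4.73 log2, AKR1C2 by 4.32 and AKR1C3 by 5.86, but these paralogs are nearly identical in sequence and a probe set of any of them can bind transcripts of the others. In glutathione synthesis, SLC7A11, the cystine importer, averaged 11.53 ± 0.03 log2 in A549 and 8.73 ± 0.31 log2 in BEAS-2B (SD, n = 3 each), and both subunits of glutamate-cysteine ligase were higher, GCLC by 2.10 and GCLM by 1.59 log2. The NADPH-producing enzymes PGD (3.23 log2) and ME1 (1.90) were higher, and so was TKT (1.12), which shares the pentose phosphate pathway with PGD. The exporters ABCC2 (5.03) and ABCC3 (2.79), the haem enzymes HMOX1 (3.31) and BLVRB (2.94), and PIR (3.91), an iron-binding pirin, were higher too.

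The 9 targets not called included TXNRD1, thioredoxin reductase, with 13.03, 13.07 and 13.12 log2 in A549, against 12.51, 12.57 and 12.54 log2 in BEAS-2B, and FTL, ferritin light chain, which averaged 13.99 log2 in A549 and 13.39 log2 in BEAS-2B. The transcripts of the regulators themselves differed little, and the level or activity of their proteins was not measured. NFE2L2 differed by 0.066 log2, with overlapping lines, and KEAP1 averaged 9.56 log2 in A549 and 8.91 log2 in BEAS-2B (0.65 log2, adjusted p = 7.74e-06 with limma, under 2-fold); both genes were chosen after their values were seen. NQO1 was at 10.38 log2 on A549 APE1 siRNA replicate 2, its lowest A549 value, and at 10.97 log2 on its highest BEAS-2B array, so for this gene the lines overlapped only through that array.

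**Figure D4:**
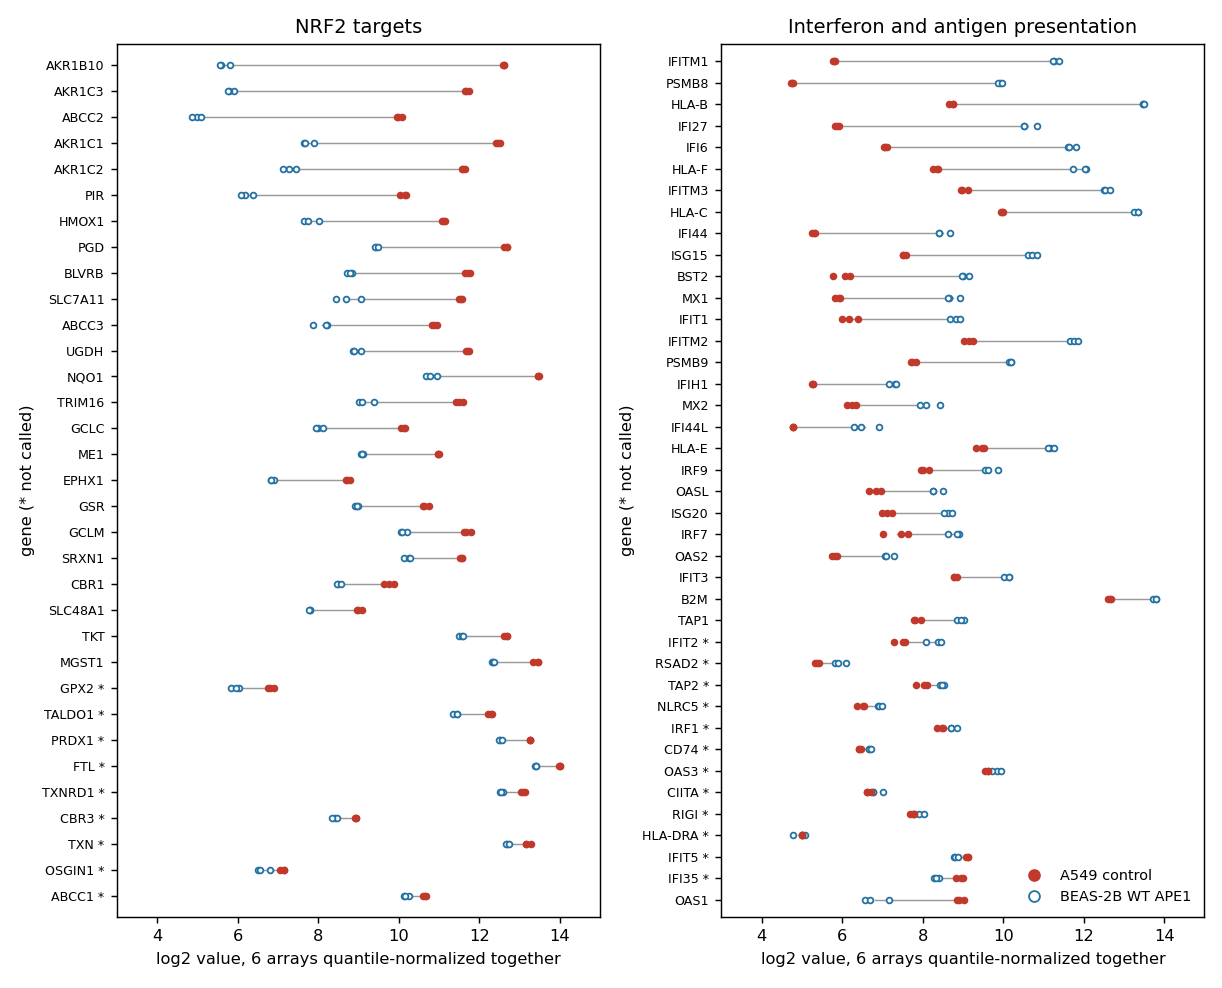
Log2 values on single arrays for every NRF2 target read (left) and every interferon-stimulated or antigen presentation gene read (right), with A549 control filled red and BEAS-2B WT APE1 open blue, and grey lines joining the means. Genes with an asterisk were not called. The red points lie to the right of the blue ones for all 33 NRF2 targets and to their left for most genes of the other list.

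The antioxidant response element was searched as TGACNNNGC on both strands of the same 300-base windows. It was in 7 of 25 target promoters with a sequence (28%), against 13.6% of all promoters. Among called targets it was in 5 of 19 and among the others in 2 of 6. The targets that were higher in A549 and carry a single match were PIR, PGD, GCLM and CBR1. The promoters of PIR and GCLM are shown as examples. They lie at chrX:15493284-15493583 and chr1:93909381-93909680 of GRCh38.p14, both on the minus strand, and are printed 5' to 3' along the gene, with the match in capitals (on the strand opposite to the gene in both, with its first base at 27 and at -34 from the start site).
PIR: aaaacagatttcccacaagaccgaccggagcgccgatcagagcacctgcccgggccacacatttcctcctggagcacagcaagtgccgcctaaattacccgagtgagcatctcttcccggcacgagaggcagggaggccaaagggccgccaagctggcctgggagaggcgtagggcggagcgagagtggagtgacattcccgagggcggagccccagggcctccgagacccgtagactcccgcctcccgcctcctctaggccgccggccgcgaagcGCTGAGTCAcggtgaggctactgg
GCLM: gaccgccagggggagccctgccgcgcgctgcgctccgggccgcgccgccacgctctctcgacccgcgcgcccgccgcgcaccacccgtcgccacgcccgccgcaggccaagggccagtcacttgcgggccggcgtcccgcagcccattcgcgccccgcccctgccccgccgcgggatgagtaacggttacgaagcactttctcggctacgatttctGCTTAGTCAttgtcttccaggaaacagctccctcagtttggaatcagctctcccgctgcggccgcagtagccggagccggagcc

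Other enzymes of xenobiotic and aldehyde metabolism went both ways. Of 41 read, 9 were higher and 4 lower in A549, and the list median was 0.03 log2. With the values as deposited 15 were higher and 2 lower. Besides ALDH1A1, CYP24A1 and ALDH3A1, ALDH3A2, a fatty aldehyde dehydrogenase, was higher by 3.18 log2. GSTM3, a glutathione transferase, had 5.58, 5.31 and 5.42 log2 in A549, against 10.12, 10.09 and 10.04 log2 in BEAS-2B, and ALDH1A3, a relative of ALDH1A1 that also makes retinoic acid, averaged 8.84 ± 0.01 log2 in A549 and 10.72 ± 0.07 log2 in BEAS-2B (SD, n = 3 each). The 2 retinal dehydrogenases thus stood in opposite directions in these lines.

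Cells make fatty acids from acetyl-CoA through ACACA and FASN, SCD then sets the double bond, and SREBF1 encodes the factor that drives these genes. Of 31 genes of fatty acid and triglyceride metabolism 8 were higher and 2 lower in A549, with a median of 0.09 log2, and with the values as deposited 14 were higher and 1 lower. SCD had 12.77, 12.75 and 12.71 log2 in A549, against 8.28, 8.44 and 8.07 log2 in BEAS-2B. FASN averaged 9.14 ± 0.03 log2 in A549 and 7.72 ± 0.09 log2 in BEAS-2B (SD, n = 3 each), ACACA was higher by 1.31 log2 and SREBF1 by 1.09. PPARG, the nuclear receptor of fat storage, had 9.35, 9.41 and 9.35 log2 in A549, against 6.04, 5.95 and 6.12 log2 in BEAS-2B. FABP5 (1.97), ELOVL7 (1.94) and DGAT2 (1.45) were higher too, and the called genes that were lower were PLIN2 and CD36. The call of CD36 (-1.14) is uncertain, since its difference was positive with the values as deposited (1.21), with centred arrays (0.50) and with the mean of its probe sets (0.011).

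Of 17 genes of cholesterol synthesis and uptake 4 were higher and 0 lower, with a median of 0.38 log2, and with the values as deposited 9 were higher and 0 lower. INSIG1, which helps to retain SREBP, had 11.21, 11.24 and 11.13 log2 in A549, against 8.24, 8.07 and 7.74 log2 in BEAS-2B. The synthesis enzymes PMVK, DHCR7 (1.23) and EBP (1.14) were the others.

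Glycolysis genes went both ways, without one direction for the pathway. Of 25 read, 5 were higher and 5 lower in A549, with a median of -0.03 log2. The counts were 6 higher and 2 lower with the values as deposited, and 2 and 4 with all probe sets of a gene averaged. HK2, the inducible hexokinase, had 5.38, 5.35 and 5.45 log2 in A549, against 9.81, 9.97 and 9.85 log2 in BEAS-2B, and all 3 of its probe sets were lower. On the other A549 arrays HK2 reached 8.99 log2, on APE1 siRNA replicate 2 alone, above the lowest BEAS-2B array at 8.74 log2. HK1, the constitutive hexokinase, was lower by -1.19 log2, PFKM by -1.56, ENO2 by -1.66 and PDK1 by -1.40. SLC2A3, a glucose transporter, was higher by 1.73 log2, GPI by 1.46, PKM by 1.11 and PFKFB3 by 1.17. PFKFB2 was just past the limit at 1.00 log2 and turned to -0.077 log2 with the mean of its probe sets. LDHA, lactate dehydrogenase, was near the top of the scale in both lines, at 13.80 log2 in A549 and 13.59 log2 in BEAS-2B. The cultures differed in medium, and its part in these values was not tested.

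Among 30 enzymes of amino acid, urea cycle and one-carbon metabolism 1 was higher and 6 were lower in A549, and with the values as deposited 8 were higher and 2 lower. The 2 that stayed lower were the large ones, GLUL and BCAT1. BCAT1, which starts the breakdown of branched-chain amino acids, had 4.64, 4.52 and 4.44 log2 in A549, against 10.06, 10.08 and 10.01 log2 in BEAS-2B. PHGDH, the first enzyme of serine synthesis, averaged 8.14 ± 0.05 log2 in A549 and 9.73 ± 0.18 log2 in BEAS-2B (SD, n = 3 each), and ASS1 (-1.47), ASNS (-1.27) and CBS (-1.04) were lower by less. GLUD1, glutamate dehydrogenase, was higher by 1.10 log2.

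Cells enter division when cyclin-dependent kinases overcome their inhibitors and RB1. Of 24 genes of this step 2 were higher and 8 lower in A549, with a median of -0.50 log2. The counts were 5 higher and 2 lower with the values as deposited, and 1 and 3 with all probe sets of a gene averaged. CDKN2A, which encodes the inhibitor p16 and the p53 activator ARF, had 6.03, 6.01 and 6.04 log2 in A549, against 10.99, 11.12 and 10.99 log2 in BEAS-2B, and 2 of its 3 probe sets were called. Its neighbour CDKN2B had 3.73, 3.69 and 3.65 log2 in A549, against 8.92, 8.85 and 8.67 log2 in BEAS-2B. Neither gene overlapped between the lines on any array of the series. This locus is known to be deleted in A549 cells. The arrays do not measure copy number, and the part of the deletion in these values was not tested. SMARCA4, the ATPase of the SWI/SNF chromatin remodeller, had 6.82, 6.91 and 7.16 log2 in A549, against 10.59, 10.61 and 10.44 log2 in BEAS-2B. It is known to be inactivated in A549, and whether that bears on its RNA level was not tested. This gene was chosen after its values were seen. CCND1, cyclin D1, was higher by 1.62 log2 and CCNE1, cyclin E1, by 1.40, while RB1 was lower by -1.46.

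Mitosis genes were lower in A549 as a list, in moderate steps. Of 32 genes 17 (against 6.44% of all genes) were lower and 0 higher, 30 of 32 differences were negative, and the median was -1.005 log2, so many members sat close to the 2-fold limit. The count was 20 with arrays centred on their medians, 12 with all probe sets of a gene averaged and 4 with the values as deposited. CDC25C, the phosphatase that starts mitosis, had 6.91, 6.96 and 6.96 log2 in A549, against 9.12, 9.16 and 9.16 log2 in BEAS-2B. KIF2C, a kinesin of the centromere, averaged 9.10 ± 0.07 log2 in A549 and 11.08 ± 0.10 log2 in BEAS-2B (SD, n = 3 each), and CCNB1, cyclin B1, and its kinase CDK1 were lower by -1.34 and -1.40 log2. MKI67, the antigen Ki-67, averaged 8.25 log2 in A549 and 8.99 log2 in BEAS-2B (-0.74 log2), under 2-fold. Of 37 DNA replication genes 1 was higher, GINS2, and 3 were lower, RRM1, RRM2 and MCM4, by at most 1.19 log2 in size. Fewer cells in mitosis and less of these transcripts per cell cannot be told apart in RNA from whole cultures.

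Among 27 targets of p53 6 were higher and 2 lower in A549, with a median of 0.12 log2, and with the values as deposited 9 were higher and 1 lower. TP53I3, a quinone oxidoreductase, had 10.61, 10.63 and 10.54 log2 in A549, against 7.68, 7.64 and 7.73 log2 in BEAS-2B. GDF15 (1.98), FAS (1.31), PHLDA3, TIGAR (1.20) and BAX (1.05) were the others that were higher. PMAIP1, the BH3 protein NOXA, was lower by -2.55 log2 and GADD45A by -1.66. CDKN1A, which encodes p21, averaged 9.55 ± 0.05 log2 in A549 and 9.99 ± 0.17 log2 in BEAS-2B (SD, n = 3 each), less than 2-fold apart.

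Growth factor ligands and their binding proteins differed in both directions. Of 43 read, 17 were higher (against 7.25% of all genes) and 7 lower in A549, with a median of 0.41 log2, and 11 were higher with all probe sets of a gene averaged. Of the ligands of the EGF receptor family read, a subgroup picked after the values were seen, EREG (7.20), NRG1 (5.02), HBEGF (1.46), BTC (1.44) and TGFA (1.42) were higher and EGF (-0.05) was not called, although HBEGF, BTC and TGFA were each called at a single probe set of several. NRG1, neuregulin, had 9.99, 10.03 and 9.94 log2 in A549, against 5.06, 4.86 and 4.99 log2 in BEAS-2B, with 4 of its 6 probe sets higher and 1 lower. IGFBP4 was higher by 2.84 log2, the WNT antagonist DKK1 by 2.42 and the activin subunit INHBA by 2.06. On the other side were DKK3 (-3.48), CCN2 (-2.64), CCN1 (-1.63), IGFBP3 (-1.55), PDGFC (-1.93), WNT5B (-2.48) and WNT5A, which averaged 6.28 log2 in A549 and 8.57 log2 in BEAS-2B.

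Of 33 growth factor receptors 4 were higher and 2 lower in A549, with a median of -0.23 log2, and with all probe sets of a gene averaged 0 were higher. EGFR itself had 9.87, 9.71 and 9.60 log2 in A549, against 8.76, 8.63 and 8.73 log2 in BEAS-2B, a difference of 1.02 log2 that lies at the limit of the call. NRP1 (1.95), MERTK (1.81) and IL6R (1.09) were the other receptors that were higher, and AXL and KIT (-1.32) were lower. MET, the hepatocyte growth factor receptor, averaged 11.66 log2 in A549 and 11.28 log2 in BEAS-2B.

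Signalling through ERK induces phosphatases that switch it off. Of 24 such feedback and AP-1 genes 7 were higher and 2 lower in A549, with a median of 0.56 log2. The counts were 13 higher and 1 lower with the values as deposited, and 5 and 3 with centred arrays. DUSP6, the ERK phosphatase, had 9.11, 9.20 and 9.02 log2 in A549, against 6.96, 6.42 and 7.14 log2 in BEAS-2B, and DUSP5 (2.22), DUSP4 (1.40), DUSP1 (1.03) and FOS (1.74) were higher. All 3 probe sets of DUSP6 and all 3 of DUSP4 were called. MAFF, a small MAF protein, was lower by -3.40 log2. SPRY2 (higher) and JUND (lower) were called at the limit, and each lost its call without any of 3 of the 6 arrays.

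Interferons induce antiviral proteins and the HLA class I machinery that shows peptides to T cells. Of 40 such genes 27 (against 6.44% of all genes) were lower in A549, 1 was higher and 12 were not called, with a median of -1.58 log2. The count was 27 with arrays centred on their medians and whichever array was left out, and 20 with the values as deposited. In antigen presentation, HLA-B had 8.64, 8.75 and 8.75 log2 in A549, against 13.47, 13.48 and 13.50 log2 in BEAS-2B. PSMB8, a subunit of the immunoproteasome that cuts antigen peptides, had 4.75, 4.77 and 4.72 log2 in A549, against 9.93, 9.87 and 9.98 log2 in BEAS-2B. HLA-C (-3.35), HLA-F (-3.61), HLA-E (-1.73), PSMB9 (-2.43), B2M (-1.14) and the peptide transporter TAP1 (-1.09) were lower too. HLA class I genes are near-identical in sequence and differ between people, so a probe set can read a neighbouring HLA gene or miss an allele, and the single HLA values are uncertain.

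Among the antiviral genes, IFITM1, which blocks virus entry, had 5.81, 5.79 and 5.76 log2 in A549, against 11.26, 11.24 and 11.38 log2 in BEAS-2B. IFI6 had 7.03, 7.11 and 7.06 log2 in A549, against 11.62, 11.81 and 11.64 log2 in BEAS-2B. ISG15, the ubiquitin-like modifier, had 7.51, 7.50 and 7.58 log2 in A549, against 10.62, 10.72 and 10.85 log2 in BEAS-2B. These groups do not overlap, but on the other arrays ISG15 reached 9.22 log2 in A549 and went down to 8.90 log2 in BEAS-2B. IFI27 (-4.75), IFITM3 (-3.54), IFI44 (-3.22), BST2 (-3.03), MX1 (-2.86) and IFIT1 (-2.62) were lower as well, and IFITM2 and IFITM3 are close enough to IFITM1 for their probe sets to share signal. OAS1, which makes the activator of RNase L, went the other way, with 8.91, 8.84 and 9.03 log2 in A549, against 6.58, 6.69 and 7.16 log2 in BEAS-2B. The BEAS-2B cells had received plasmid DNA and the A549 cells siRNA, and the nucleic acid and the line cannot be told apart for the interferon genes.

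The interferon-stimulated response element was searched as GAAANNGAA on both strands of the same windows, a motif added after the values were seen. It was in 21 of 30 promoters with a sequence (70%), against 8.29% of all promoters, and the list holds genes known for this element. It was in 16 of the 21 promoters of genes that were lower and in 5 of the 8 of genes not called, so its presence was shared by genes that differed and genes that did not. The promoters of IFITM1 (chr11:313790-314089, plus strand), ISG15 (chr1:1013247-1013546, plus strand) and IFI6 (chr1:27672143-27672442, minus strand) of GRCh38.p14 are shown because these genes differed strongly and have 2, 3 and 3 matches, all in the direction of the gene. Capitals mark the matches, which overlap in ISG15.
IFITM1: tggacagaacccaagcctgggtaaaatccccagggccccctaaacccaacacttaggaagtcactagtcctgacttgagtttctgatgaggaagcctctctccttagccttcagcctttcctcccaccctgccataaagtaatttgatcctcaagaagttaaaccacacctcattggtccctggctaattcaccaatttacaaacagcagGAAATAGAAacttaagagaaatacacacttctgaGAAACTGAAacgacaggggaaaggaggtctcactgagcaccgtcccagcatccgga
ISG15: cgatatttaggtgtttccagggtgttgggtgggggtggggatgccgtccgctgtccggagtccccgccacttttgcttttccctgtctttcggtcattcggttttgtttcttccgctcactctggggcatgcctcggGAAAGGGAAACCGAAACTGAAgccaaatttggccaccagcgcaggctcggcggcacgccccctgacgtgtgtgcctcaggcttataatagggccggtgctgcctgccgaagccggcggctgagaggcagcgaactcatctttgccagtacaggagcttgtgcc
IFI6: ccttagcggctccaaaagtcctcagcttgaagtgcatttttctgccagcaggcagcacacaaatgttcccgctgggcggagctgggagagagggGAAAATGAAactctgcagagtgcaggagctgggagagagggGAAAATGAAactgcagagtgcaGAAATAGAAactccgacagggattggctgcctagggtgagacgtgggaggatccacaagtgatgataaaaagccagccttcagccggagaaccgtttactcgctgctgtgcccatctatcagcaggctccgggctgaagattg

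Of 29 cytokines and chemokines 10 were lower and 2 higher in A549, with a median of -0.25 log2, and with the values as deposited 7 were lower and 6 higher. The neutrophil chemokines led: CXCL5 had 3.62, 3.61 and 3.74 log2 in A549, against 9.97, 9.90 and 10.02 log2 in BEAS-2B, and CXCL8, interleukin 8, had 9.61, 9.59 and 9.66 log2 in A549, against 13.12, 12.98 and 13.17 log2 in BEAS-2B. CCL2, a monocyte attractant, was lower by -2.66 log2, the death ligand TNFSF10 by -2.06 and the NF-kB inhibitor TNFAIP3 by -1.78. CCL26, an eosinophil chemokine, averaged 8.40 ± 0.02 log2 in A549 and 5.96 ± 0.07 log2 in BEAS-2B (SD, n = 3 each), and CXCL3, a neutrophil chemokine, was also higher. IL6 averaged 10.47 log2 in A549 and 10.02 log2 in BEAS-2B, under 2-fold.

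APEX1, the gene the study is about, had 11.86, 11.90 and 11.78 log2 in A549, against 11.18, 11.34 and 10.45 log2 in BEAS-2B, a difference of 0.86 log2 (SE 0.18, limma adjusted p = 0.00179) that is under 2-fold. The BEAS-2B cells carried an APE1 plasmid, and whether the single probe set of APEX1 reads its transcript was not tested. Replicate 3 of BEAS-2B stands below the others. Of 21 base excision repair genes 0 were higher and 1 was lower in A549, the glycosylase NEIL3 (-1.01 log2), with a median of 0.15 log2. With the values as deposited 7 were higher and 0 lower, and the call of NEIL3 was lost without A549 control replicate 3 or BEAS-2B WT APE1 replicate 3. Of 16 housekeeping genes 0 were higher and 2 lower, B2M and the succinate dehydrogenase subunit SDHA (-1.52), with a median of -0.26 log2, and with the values as deposited 1 was higher and 0 lower. HPRT1, the internal control gene of the study's PCR, had 12.16, 12.07 and 12.26 log2 in A549, against 11.83, 11.87 and 11.84 log2 in BEAS-2B.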

How the data were processed

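The authors hybridised RNA to Affymetrix HG-U133 Plus 2.0 arrays, and the deposited values are log2 signals per probe set after RMA background correction and quantile normalization with affy, done separately for each cell line. The sources used here give no versions for these tools. The 4 deposited tables of the authors' own comparisons (fold changes and p-values) were not used, and 0 value columns had no sample.

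The 6 arrays were grouped by title and quantile-normalized together over 54675 probe sets. After 62 control probe sets were left out, 54613 were fitted with limma 3.58.1 (lmFit and eBayes, R 4.3.3), with Benjamini-Hochberg adjustment over all of them, in a script tested on simulated data. Calls needed an adjusted p below 0.05 together with a change of at least 2-fold. Where a gene had several probe sets, the brightest on average was taken, using the platform annotation (41091 probe sets with 1 symbol, 1801 with several and 11721 with none) and gave 19775 genes. Only 3 arrays per group limit the precision. The methods call the replicates biological.

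The members, gene lists and tests were chosen with earlier results of these data known. The 30 lists held 834 distinct genes, of which 764 were read and the rest were not analysed here. Named were the 15 called genes with the most positive and the 15 with the most negative difference where the higher line averaged at least 8 log2, then list members, called ones first by size, and APEX1 and HPRT1. NFE2L2, KEAP1, SMARCA4 and any list member beyond 8 per direction were added after their values were seen. Promoter sequences and start sites are from RefSeq (GRCh38.p14). Alternatives covered the scaling, the probe set rule, the signal filter, the model, the thresholds, the replicate block and each array left out. Overlap over 21 arrays, with and without the array that stood apart, was chosen after seeing the data.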

Additional observations from a re-analysis of the deposited data

How the results depend on the processing

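The counts of genes called, 1434 higher and 1273 lower in A549, depended on the scaling and the thresholds. With the values as deposited they were 4589 and 543, and 1971 of the 2707 calls were shared. With arrays centred on their medians 2100 were lower. With the lower fold minimum of the study they were 5320 and 5297, at 4-fold 343 and 336, and 925 were higher when tested against a 2-fold change. Leaving out each array gave 1408 to 1473 higher and 1262 to 1301 lower. For the lists, 4-fold left 15 of 24 NRF2 targets and 5 of 17 growth factor ligands higher, and 16 of 27 interferon genes, 5 of 10 cytokines and 1 of 17 mitosis genes lower. Ligands fell to 11 with all probe sets of a gene averaged, and mitosis genes were 4 with the values as deposited and 29 with that lower fold minimum. Without single arrays the ranges were 24 to 24 (NRF2), 15 to 17 (ligands), 27 to 27 (interferon), 9 to 10 (cytokines), 19 to 21 (matrix) and 16 to 18 (mitosis). The cause was not tested beyond these settings.

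The sign turned for CD36 (-1.14) to 1.21 as deposited, 0.50 centred and 0.011 with the mean of probe sets, and for PFKFB2 (1.00) to -0.077 with the mean of probe sets. Of 267 called genes among those named or listed, 195 kept their call under the other scalings, models, filter and probe set rule and without each array, at the same thresholds and leaving aside the deposited values, as did 109 of the 115 of at least 4-fold. With the deposited values 201 of the 267 kept it. With a replicate block in the fit the counts were again 1434 and 1273. The residuals of same-numbered arrays correlated at 0.0334, -0.0989 and -0.0995 and so showed no clear shared pattern. Whether same-numbered cultures were handled together cannot be read from these values. Of the called genes 158 averaged under 6 log2 in both lines, where signal over background limits the reading, and 30 of 1625 with several probe sets had another probe set called the other way.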
